A study of Sus scrofa with 2 samples.

Results

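A CpG reads the same on both DNA strands, so each CpG forms a dyad of 2 cytosines, with 1 on the plus strand and 1 on the minus strand at the next position. In muscle DNA of 2 Tibetan pigs, 1498 autosomal dyads had unequal measured methylation levels on their strands, with the same strand higher in both pigs. They were chosen from 229894 dyads on chromosomes 1 to 18 that had 8 to 60 reads on each strand in each library, out of 933995 autosomal dyads with both strands listed in both libraries. A member had a methylation level at least 30 percentage points higher on the plus than on the minus strand in both libraries, or at least 30 points lower in both. The level is the share of reads in which the cytosine was still read as cytosine after bisulfite treatment, which marks it as methylated. Members were 0.652% of the eligible dyads, and 783 would be expected if the libraries were unrelated. The strand levels that chose the members are given as a description.

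The DNA came from longissimus dorsi, the long muscle of the back, of female Tibetan pigs. The high-altitude pig ranged freely on the Tibetan highland, at 4000 m on average. The low-altitude pig lived on normal feed on the Chengdu plain, at 500 m on average, and its forebears were Tibetan pigs raised in the lowland for a number of generations. The pigs thus differed in altitude, diet, housing and descent at once, and with 1 pig and 1 library per group no difference between them has a replicate error. Frozen tissue gave genomic DNA with added lambda phage DNA, which was sheared, joined to methylated adapters and treated with bisulfite before amplification. The lists held 10441830 cytosines at high and 10104625 at low altitude, with a median of 8 reads per cytosine in each.

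Methylation of a CpG is normally kept on both strands. Copying of DNA leaves a methylated parent strand beside an unmethylated daughter strand, and the protein UHRF1 binds such a half-methylated CpG and brings the methyltransferase DNMT1, which methylates the daughter strand. A lasting difference between the strands is called hemimethylation and has been described at some binding sites of the factor CTCF in other mammalian cells. Bisulfite reads come from single strands, so the plus and minus reads of a dyad come from different molecules. An unequal dyad in these data is therefore a difference between the averages of its strands over many cells, and not an observation of a half-methylated molecule.

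Dyads with unequal strands in both pigs were more frequent than unrelated libraries would give. Of the eligible dyads, 18010 (7.83%) differed by 30 points or more between strands at high altitude and 19987 (8.69%) at low altitude. If the libraries were unrelated, these shares would give 783 dyads with the same strand higher in both. The observed 1498 were 1.91 times that number (95% Poisson interval 1.82 to 2.01, counting error only). A further 887 dyads were unequal in both libraries with opposite strands higher, against an expected 783, so that agreement in direction exceeded disagreement by 611 dyads. The level and depth of a dyad, which both libraries can share, bear on whether it passes the threshold. With the shares taken within 10 classes of dyad level and 5 of depth, 1156 dyads were expected in the same and 1155 in the opposite direction. The observed number of members was 1.3 times the expected one, while the 887 opposite dyads were fewer than expected. The classes were formed from the same reads that decide membership, which bears on these expected numbers.

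The ratio of observed to expected dyads rose with the size of the difference. At a threshold of 20 points, 7967 dyads had the same and 6022 opposite strands higher, against 6078 expected in the same direction. At 40 points the numbers were 346 and 84, against 78.2 expected. At 50 points, which 0.776% of dyads reached in the high- and 0.87% in the low-altitude library, they were 115 and 6, against 7.76 expected, or 18 within classes of level and depth. At 60 points, 48 dyads had the same strand higher and none opposite strands, against 0.457 expected. Of the 1498 members, 1152 had a smaller difference of 30 to 40 points, where 803 opposite dyads stood beside them, and these cannot be told one by one from dyads that passed in both libraries by counting error.

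**Figure D1:**
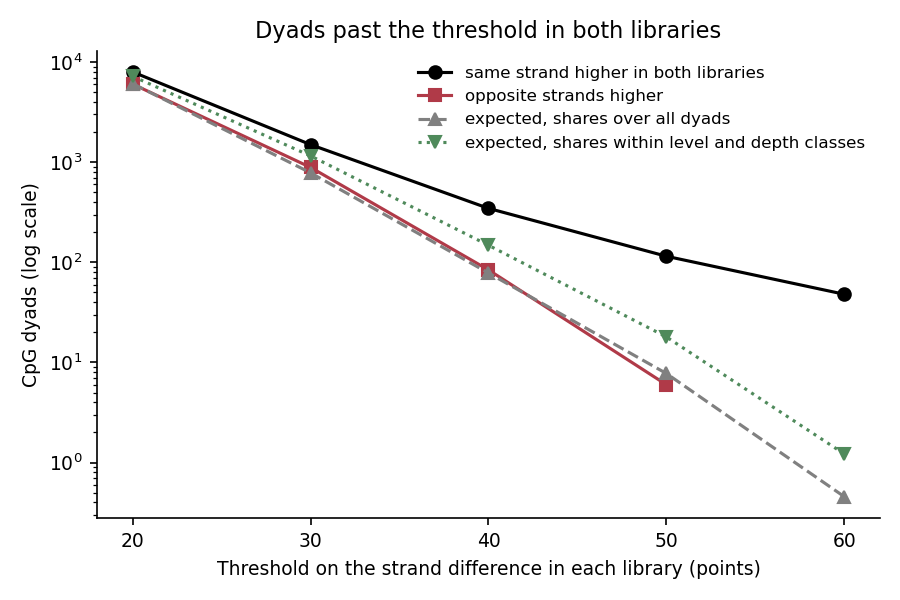
Number of eligible dyads (log scale) whose strand difference reached a threshold (horizontal axis, percentage points) in both libraries, with the same strand higher (circles) or opposite strands higher (squares), beside the numbers expected from the shares of each library. At 30 points 1498 dyads stand against 887 opposite ones, and at 60 points 48 stand against none, a value that a log axis cannot show.

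The same contrast was sharper in deeper dyads. Among the 145157 dyads whose least covered strand had 8 or 9 reads, 1089 were members and 681 were opposite, at 1.73 times the expected number. Among 23057 dyads with 12 to 14 reads on that strand, 88 were members and 38 opposite, at 2.77 times the expected number. Among the 6124 dyads with at least 15 reads on each strand in each library, 38 were members and 1 was opposite, where 4.09 members were expected. With more reads the members thus outnumbered the opposite dyads by a growing factor. The share of members did not rise steadily. It was 0.75% at 8 or 9 reads, 0.509% at 10 or 11 and 0.382% at 12 to 14. At 15 to 19 reads it was 0.582%, and at 20 to 60 reads 0.759%. Whether the deeper dyads differ from the others in more than their depth was not tested.

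A dyad classed by its difference in a single library can be measured in the other, which took no part in that classing. Dyads that differed by 30 to 40 points in the high-altitude library had a mean difference of only 1.63 ± 0.17 points (SE over 12365 dyads) in the same direction in the low-altitude library. The mean was 5.9 ± 0.602 points for the 1351 dyads at 50 to 60 points, 12.46 ± 1.48 points for the 327 at 60 to 70 points and 23.44 ± 3.58 points for the 105 at 70 points or more. Classed in the low-altitude library and measured in the high-altitude library, the same classes had 1.42 ± 0.157, 4.75 ± 0.537, 11.43 ± 1.34 and 27.71 ± 3.33 points. Most of a strand difference seen in 1 library was therefore not seen in the other, and the part that was seen rose with its size. Dyads and not pigs are the units of these errors.

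**Figure D2:**
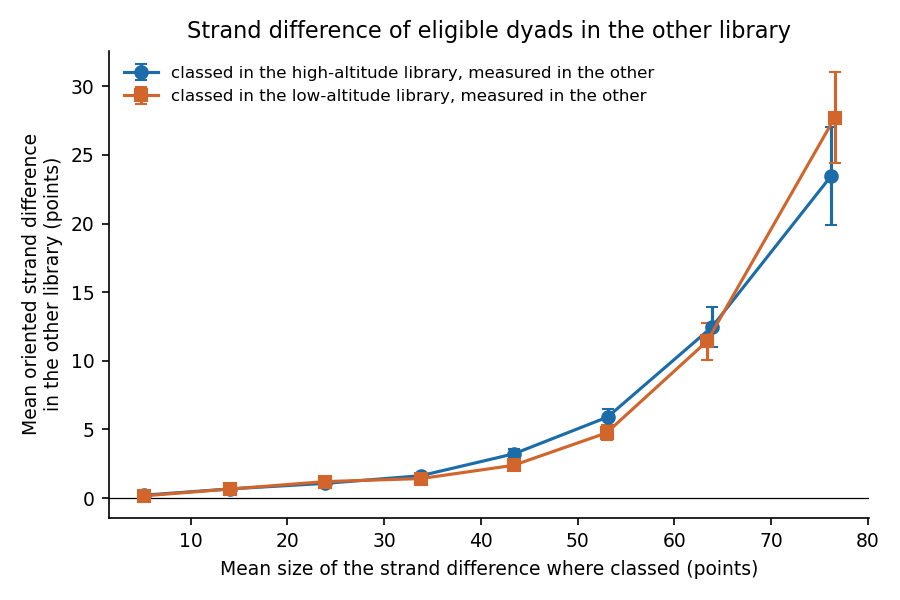
Mean strand difference in the other library (vertical axis, points, oriented so that positive values mean the same strand was higher) of eligible dyads classed by the size of their difference in the named library (horizontal axis, class mean in points); bars are the SE over dyads. Both curves lie near 0 up to 30 points and reach 23.44 and 27.71 points in the last class.

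Of the 18010 dyads unequal in the highland pig, 8.32% (95% Wilson interval 7.92 to 8.73) had the same strand higher by 30 points in the low-altitude library, and 4.93% (4.62 to 5.25) had the opposite strand higher. Among all eligible dyads the plus strand was higher by that much in 4.43% and the minus strand in 4.27% of cases in the low-altitude library. Seen from the low-altitude library, 7.49% recurred in the same direction and 4.44% in the opposite direction. The plus strand was higher in 781 members and the minus strand in 717, or 52.1% for plus, with a Wilson interval of 49.6 to 54.7 that includes an even split.

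The higher strand of a member was mostly methylated and the lower strand was at an intermediate level. The higher strand had 81.3% ± 14 (SD over 1498 members) at high and 80.8% ± 14.7 at low altitude. The lower strand had 39.7% ± 16.9 and 39.2% ± 17.2. The higher strand was at 80% or more in both libraries in 650 members (43.4%), and in 384 of them the lower strand lay between 35 and 65% in both. Sequence variants at these dyads were not looked up. Both strands were near their extremes, with the higher at 80% or more and the lower under 20% in both libraries, in 16 members (1.07%).

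**Figure D3:**
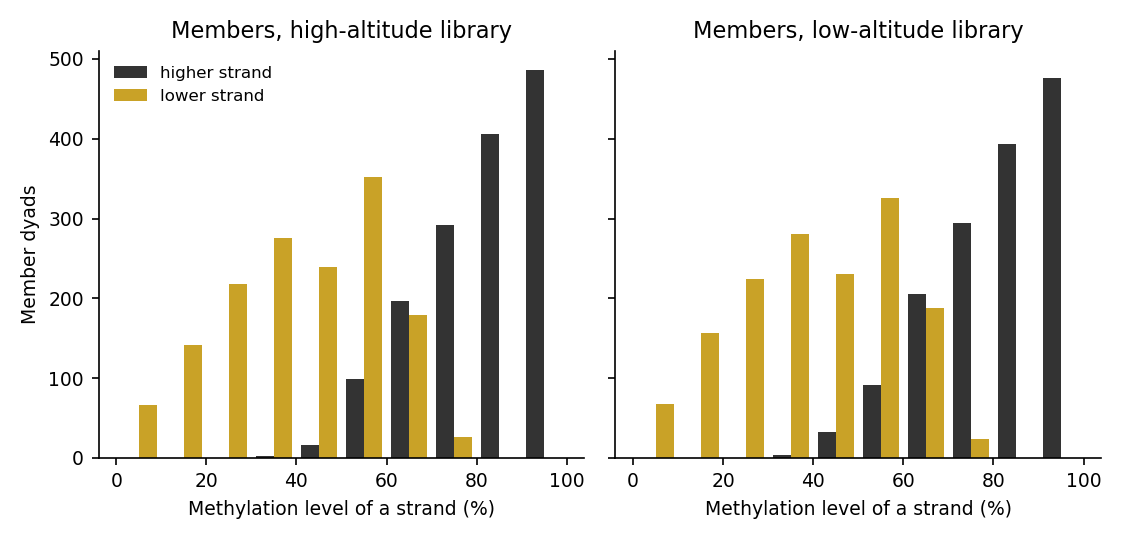
Numbers of the 1498 members by methylation level (horizontal axis, %, classes of 10 points) of their higher strand (dark) and lower strand (yellow), 1 panel per library. Higher strands pile up at the top of the scale, with means of 81.3% and 80.8%, and lower strands spread around 39.7% and 39.2%.

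Members with the largest differences had a lower strand at a low level, which the size of the difference in part requires. In the 115 members at 50 points or more, the higher strand had 82.8% ± 10.5 (SD) at high and 84.6% ± 10.4 at low altitude, and the lower strand 18.5% ± 11 and 19.2% ± 11.8. In the 48 members at 60 points or more, the lower strand had 12.5% ± 5.91 and 14.7% ± 8.98. A strand without any methylated read is absent from these lists, so a completely unmethylated lower strand could not be a member. In 27 of these 48 members (56.2%) the lower strand had a single methylated read in at least 1 library, against 192 of all 1498 members (12.8%). The largest differences therefore stood at the edge of what the lists can show.

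Among members with at least 15 reads on each strand in each library, 15 had the plus strand higher, and the 4 with the largest difference are given first. On chromosome 8, at position 85328802 on the plus strand, the high-altitude library had 87.0% (20 of 23 reads) on the plus and 11.4% (4 of 35 reads) on the minus strand. The low-altitude library had 91.3% (21 of 23 reads) and 7.69% (4 of 52 reads) there. The Wilson intervals of the strands were far apart in both pigs, at 67.9 to 95.5% against 4.54 to 26.0% at high altitude and 73.2 to 97.6% against 3.03 to 18.2% at low altitude. The named dyads were chosen for their large strand difference in these same reads, so separate intervals describe them and are no test.

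The second dyad on chromosome 8, at 81370301, had 84.0% (21 of 25 reads) and 11.1% (2 of 18 reads) on the plus and minus strands at high altitude, and 77.4% (24 of 31 reads) and 14.8% (4 of 27 reads) at low altitude. On chromosome 11, at 70735677, it was 86.7% (13 of 15 reads) and 26.1% (6 of 23 reads) at high, and 94.1% (16 of 17 reads) and 31.6% (6 of 19 reads) at low altitude. On chromosome 17, at 67674698, it was 82.4% (14 of 17 reads) and 9.3% (4 of 43 reads) at high, and 68.4% (13 of 19 reads) and 8.33% (4 of 48 reads) at low altitude. At these 3 dyads too, chosen in the same way, the Wilson intervals of the strands did not overlap in either library. The closest pair was that of chromosome 11 at high altitude, with 62.1 to 96.3% against 12.5 to 46.5%.

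The other 23 members of that depth had the minus strand higher. The largest difference among them was on chromosome 5, at 57320652, where the plus strand had 9.09% (2 of 22 reads) and the minus strand 89.7% (26 of 29 reads) at high altitude. At low altitude it had 8.0% (2 of 25 reads) and 87.1% (27 of 31 reads), so that each strand differed by under 3 points between the pigs. On chromosome 2, at 73317769, the levels of the plus and minus strands were 6.25% (1 of 16 reads) and 75.0% (12 of 16 reads) at high, and 4.35% (1 of 23 reads) and 93.3% (14 of 15 reads) at low altitude.

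On chromosome 4, at 97828006, they were 2.13% (1 of 47 reads) and 87.1% (27 of 31 reads) at high, and 8.7% (2 of 23 reads) and 76.9% (20 of 26 reads) at low altitude. This dyad lay in DNA of low methylation, with 17.0% and 19.3% over all reads of the 14 other listed CpGs within 500 bp, so that its minus strand stood out from its surroundings. The dyad on chromosome 8 at 85328802 lay in highly methylated DNA, with 86.8% and 80% over 6 listed CpGs, so that there the minus strand was the one that differed. On chromosome 13, at 160162716, the strands had 13.3% (2 of 15 reads) and 76.2% (16 of 21 reads) at high, and 26.7% (8 of 30 reads) and 100% (20 of 20 reads) at low altitude.

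**Figure D4:**
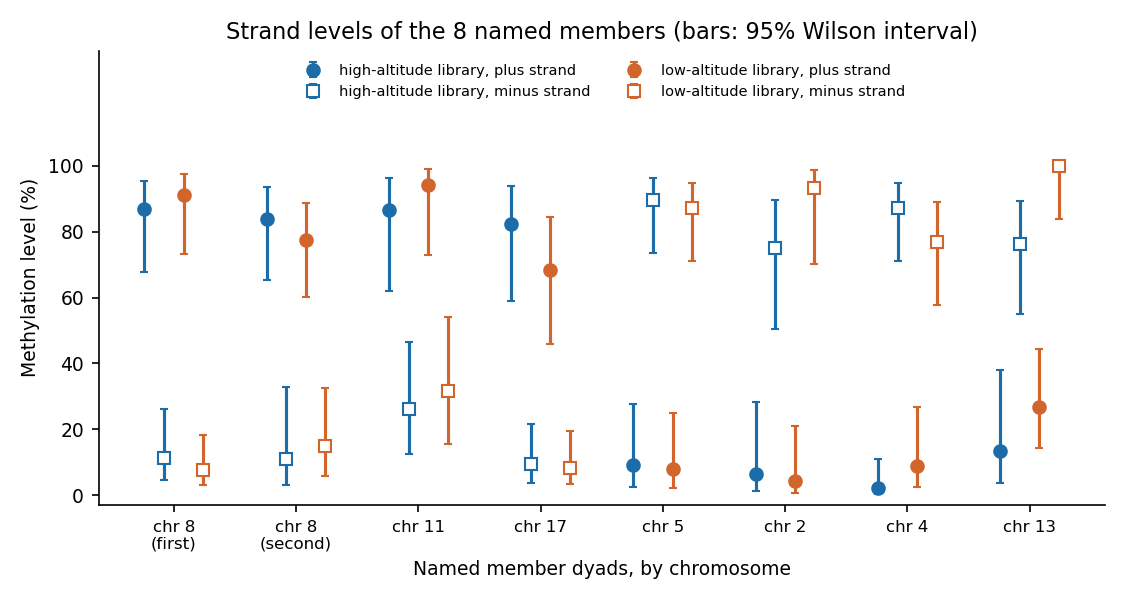
Methylation level (%) of the plus strand (filled circles) and minus strand (open squares) in the high-altitude (blue) and low-altitude (orange) library at the 8 named members with at least 15 reads per strand, in the order of the text, with 95% Wilson intervals of the reads. The same strand is higher in both pigs at each dyad, and the differences run from 60.1 to 89.0 points.

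At the threshold the strands were much closer. At exactly 30 points lay 130 members, of which the 2 with most reads were on chromosome 10 at 23528279, with 70% (14 of 20 reads) on the plus and 40% (6 of 15 reads) on the minus strand of the low-altitude library, and on chromosome 16 at 62699082, with 50% (12 of 24 reads) and 80% (8 of 10 reads) there. Just outside lay dyads on chromosome 6 at 143374187, with a smaller difference of 29.95 points, and on chromosome 1 at 174317744, with 29.93 points. Of the members, 322 had a smaller difference of 30 to 31 points, while 190 dyads lay at 29 to 30 points in the same direction in both libraries.

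A few members also passed a test of single dyads. By the two-sided Fisher's exact test between strands, with Benjamini-Hochberg adjustment over all 229894 dyads, 25 dyads (0.0109%) had an adjusted p below 0.05 at high altitude and 25 (0.0109%) at low altitude. Of these, 22 and 23 were members, and 9 members passed in both libraries. The rule used this contrast, so these counts describe the members and are no test of them.

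Whether the strand difference extended along the DNA was read from neighbouring dyads, which the rule did not use. Of the members, 402 had another eligible dyad that was no member within 100 bp. Oriented so that positive values mean the same strand was higher as in the member, these neighbours differed by 5.54 ± 0.883 points (SE over 402 members) in the high-altitude and 6.0 ± 0.863 points in the low-altitude library. Within 20 bp the difference was 7.64 ± 1.33 and 10.04 ± 1.52 points over 154 members, and from 21 to 50 bp it was 7.24 ± 1.4 and 4.72 ± 1.28 points over 167 members. From 51 to 100 bp it was 0.6 ± 1.39 and 2.77 ± 1.39 points. Further away, up to 200 bp, it was 0.3 ± 1.38 and 1.69 ± 1.43 points, less than 1.5 SE from 0 in each library. The neighbours thus leaned the same way by more than 3 SE in both libraries within 50 bp, and by far less than the 30 points of a member.

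Reads that cover a member often cover its close neighbours, so neighbours share its molecules within a library. This showed in dyads that were unequal in 1 library and differed by under 10 points in the other. Around the 6970 such dyads of the high-altitude library, neighbours within 20 bp leaned by 5.98 ± 0.575 points in that library and by −0.14 ± 0.587 points in the other. Around the 8327 of the low-altitude library they leaned by 7.86 ± 0.558 and, in the other library, by 0.08 ± 0.571 points. The small difference that chose these dyads in the other library also bears on their neighbours there. Around all dyads unequal in the high-altitude library, members included, neighbours within 20 bp leaned by 1.04 ± 0.416 points in the low-altitude library, and by 1.8 ± 0.389 points in the reverse case. The lean that crossed from pig to pig was thus smaller than the lean within a library. Around 66 opposite dyads, oriented by the strand higher in the high-altitude library, neighbours within 20 bp leaned by 6.55 ± 2.06 points there. In the low-altitude library they leaned by −11.07 ± 2.12 points, towards the strand that was higher in that library. A lean within a library was thus not particular to members. The part of shared reads in the values around members was not tested.

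**Figure D5:**
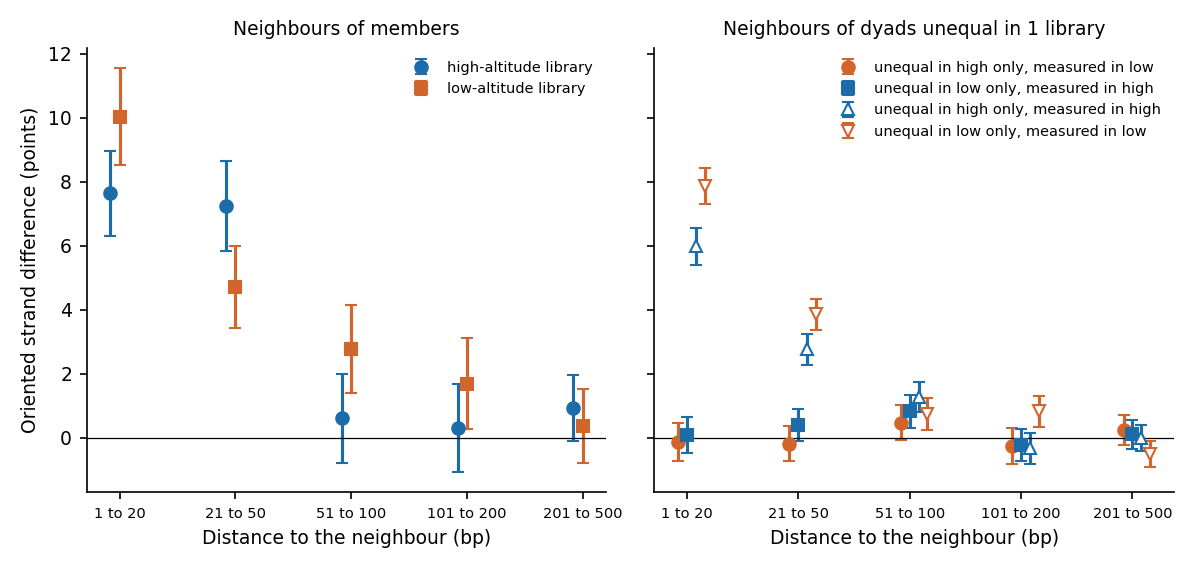
Mean strand difference (vertical axis, points, positive where the strand that is higher in the chosen dyad is higher) of neighbouring eligible dyads by distance (horizontal axis, bp), around members (left) and around dyads unequal in 1 library only (right); bars are the SE over chosen dyads. Around members both libraries are above 0 within 50 bp, and around dyads unequal in 1 library only the library that chose them is, with 5.98 and 7.86 points within 20 bp.

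Members seldom lay within 500 bp of each other, and those that did had the same strand higher. Within 500 bp of another member lay 42 of the 1498 (2.8%, Wilson interval 2.08 to 3.77), which formed 15 pairs and 4 groups of 3. All 23 neighbouring pairs in these groups had the same strand higher. Of dyads unequal in the high-altitude library only, 2.91% lay that close to another of their kind, with the same strand higher in 66 of 103 pairs, and of those in the low-altitude library only 3.39%, with 81 of 142 pairs. Opposite dyads lay that close in 0.902% of cases, with the same strand higher at high altitude in all 4 pairs. The classes held 1498 members, 6970 and 8327 dyads unequal in 1 library only, and 887 opposite dyads. In a larger class more dyads of the same kind are there to lie near. These shares are therefore not directly comparable, and the difference between them was not tested. Within 10000 bp, 38 of 44 pairs of neighbouring members had the same strand higher. None of the 115 members at 50 points or more had another of them within 2000 bp.

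The 3 most compact groups of 3 members had the minus strand higher. On chromosome 5, from 36136813 to 36136830, the plus strand had 28.4% and the minus strand 82.1% over all reads of the 3 dyads at high altitude, and 31.0% and 82.6% at low altitude. The plus strand of the first to last dyad had 28.6%, 21.7% and 34.8% at high altitude, and the minus strand 83.3%, 84.6% and 78.6%. The strands were thus separate at each of these dyads, although 16 bp is short enough for the same reads to cover all 3.

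On chromosome 13, from 160162696 to 160162717, the strands had 12.9% and 85.7% at high and 40% and 94.7% at low altitude, and this group holds the named dyad of that chromosome. Its plus strand differed between the pigs, with 12.5%, 12.5% and 13.3% at high and 50%, 52.9% and 26.7% at low altitude, from 8 to 15 reads at high and 17 to 30 reads at low altitude. On chromosome 18, from 49251079 to 49251198, the strands had 23.7% and 67.9% at high and 44.8% and 76.7% at low altitude. There both strands rose in level from the first to the last dyad in both libraries, the plus strand from 14.3% to 33.3% at high and from 22.2% to 66.7% at low altitude.

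Read depth, which the rule bounded but did not compare between strands, was nearly even in members. The higher strand had fewer reads than the lower in 43.9% of members (Wilson interval 41.4 to 46.4) and more in 48% at high altitude, and fewer in 43.6% and more in 45.3% at low altitude. Among opposite dyads, the strand that was higher in the high-altitude library had fewer reads there in 44.6%. In the 115 members at 50 points or more, the higher strand had fewer reads in 52.2% (Wilson interval 43.1 to 61.1) and 54.8% (45.7 to 63.6), with means of 15.7 reads on the higher and 17.5 on the lower strand at high altitude, and 14.8 and 18.3 at low altitude. The higher strand had at most 0.5 times the reads of the lower in both libraries in 11 of these (9.57%), against 2.94% of all members, and at least double the reads in 7 (6.09%), against 3.14%. Among the other eligible dyads, oriented by the high-altitude library, these shares were 2.46% and 2.35%. Both shares were thus higher in the 115 members, but they rest on 11 and 7 dyads and the difference was not tested.

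Members with the largest differences were also deeper. A strand reached 30 reads in at least 1 library in 27 of the 115 members at 50 points or more (23.5%, Wilson interval 16.7 to 32.0), in 78 of all 1498 members (5.21%) and in 3.31% of the other eligible dyads. At 30 to 40 points the share was 2.43%, below that of the other dyads. Without dyads with such a strand, 88 members at 50 points or more were left, 11.8 times the expected number. At 50 points the excess of members over the expected number was thus present without dyads that had 30 reads or more on a strand. That limit was chosen after seeing the data, and the part of depth in the excess was not tested.

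Set against other eligible dyads within 100 bp on the same strand, the reads of the higher strand of members were 0.934 times as many at high altitude (geometric mean over 418 members) and 0.938 times at low altitude. Those of the lower strand were 0.963 and 0.948 times as many. Ratios below 1 were also found in opposite dyads, from 0.958 to 0.979, and in dyads unequal in 1 library only, with 0.968 and 0.972 on the higher and 0.956 on the lower strand of the library that chose them. In the 23 members at 50 points or more with such neighbours, the higher strand had 0.822 and 0.852 times and the lower strand 1.12 and 1.01 times the reads. Only 23 dyads stand behind these last ratios, and the log2 values of the lower strand were within 1.5 SE of 0.

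The DNA around members was somewhat less methylated than around other dyads. Over all reads of listed CpGs within 500 bp, the mean level was 68.0% ± 0.458 (SE) at high and 66.1% ± 0.466 at low altitude around members, and 73.5% ± 0.0336 and 72.4% ± 0.0336 around the other eligible dyads. It was 68.4% ± 0.557 and 67.4% ± 0.552 around opposite dyads, nearer to members than to the other dyads. Around the 115 members at 50 points or more it was 61.7% ± 2.18 and 59.2% ± 2.11. The share of members fell from 1.35% of the 8534 dyads with surroundings under 40% to 0.359% of the 15044 with 90% or more. A dyad can differ by 30 points only if its own level is not extreme, and that level follows its surroundings, so this order is in part built into the rule. Opposite dyads numbered 42 in the first and 21 in the last of these classes, beside 115 and 54 members.

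In the spacing of listed CpGs members were close to other dyads. A median of 5 listed CpGs lay within 500 bp of members and of the other eligible dyads. The nearest listed CpG was at a median of 77 bp from members and 76 bp from the others, and lay within 10 bp in 9.81% (Wilson interval 8.41 to 11.4) and 8.44% (8.32 to 8.55). Another listed CpG followed directly, at 2 bp, in 0.801% and 0.724%. Within 2 Mb of a chromosome end lay 2.74% of members (2.02 to 3.69) and 2.24% of the others.

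Members occurred on every autosome at similar rates. Their share of eligible dyads was 0.659% ± 0.0918 (SD over 18 autosomes), from 0.521% on chromosome 12 (16 members) to 0.868% on chromosome 10 (72 members, Wilson interval 0.69 to 1.09). These shares do not describe the spread along an autosome. Several members lay near the named dyad at 23528279 on chromosome 10, and several near those at 67674698 and 69674032 on chromosome 17. Whether eligible dyads were also dense there was not tested. Members outnumbered opposite dyads on all 18 autosomes, and their number was 1.61 to 2.62 times the expected one. On X, of which female cells silence a copy, the same rule gave 95 of 10559 dyads (0.9%), against 77 expected and 82 opposite, a ratio of 1.23. There the mean dyad level was 60% at high altitude, and 11.6% and 12.6% of dyads were unequal at high and low altitude. At 50 points X gave 3 dyads, against 0.779 expected and 1 opposite. Unplaced scaffolds gave 30 of 7037 dyads (0.426%), against 21.7 expected and 25 opposite. At 50 points the scaffolds gave 3 dyads, against 0.179 expected and 0 opposite, a ratio of 16.7 (3.45 to 48.9) that rests on these 3 dyads. At 30 points the ratio on X had a 95% Poisson interval of 0.998 to 1.51 and was lower than on any single autosome. That of the scaffolds, 1.38 (0.932 to 1.97), overlapped the 1.82 to 2.01 of all autosomes. With shares taken within level classes the ratio was 1.09 on X, 0.964 on the unplaced scaffolds and 1.37 on the autosomes.

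The level between the pigs, summed over strands, was not used by the rule. Members had 60.8% at high and 60% at low altitude, a difference of −0.72 ± 0.349 points (low minus high, SE over 1498 members). The other eligible dyads had 75.4% and 74.3%, a difference of −1.09 ± 0.0291 points, and opposite dyads −0.85 ± 0.471 points. In members the higher strand differed by −0.47 ± 0.371 points and the lower strand by −0.58 ± 0.394 points. On average both strands of members were thus at about the same level in both pigs, but single members went either way, with an SD over members of 14.4 points for the higher and 15.2 points for the lower strand.

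The two-sided Fisher's exact test compared the libraries, with Benjamini-Hochberg adjustment over all eligible dyads, and a dyad was called where the adjusted p was below 0.05 and the levels were 25 points or more apart. It called 3 members (0.2%, Wilson interval 0.0681 to 0.587), against 0.962% of all eligible dyads. Among opposite dyads it called 0. The low share in members may thus be set in part by the threshold on the strands, which was not tested. Of the called members, 2 were higher at low altitude, where 0.455% of all dyads were called, and 1 was lower, where 0.506% were. These tests compare 2 libraries and not 2 altitudes. On chromosome 17, at 69674032, the plus and minus strands had 55.6% (5 of 9 reads) and 5.36% (3 of 56 reads) at high and 92.3% (12 of 13 reads) and 18.2% (2 of 11 reads) at low altitude, a rise of 46.0 points (exact test, adjusted p = 0.00781). The strands of this dyad were covered unequally, and the summed level at high altitude was mostly that of the minus strand.

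On chromosome 8, at 127054158, the strands had 22.2% (4 of 18 reads) and 54.5% (6 of 11 reads) at high and 62.5% (5 of 8 reads) and 100% (15 of 15 reads) at low altitude, a rise of 52.5 points (exact test, adjusted p = 0.0269). On chromosome 7, at 49379327, they had 100% (11 of 11 reads) and 56.0% (14 of 25 reads) at high and 45.5% (5 of 11 reads) and 8.7% (2 of 23 reads) at low altitude, so that the level fell by 48.9 points (exact test, adjusted p = 0.0111). In both, the strands differed in the same direction in each pig while the level of both strands moved. Tested on a single strand, none of the members was called, where 0.0087% of all dyads were on the plus and 0.0109% on the minus strand.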

How the data were processed

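Whole-genome bisulfite sequencing gave 1 list of cytosines per library, from 1 pig per altitude group. The submitters' processing notes name Bismark 0.12.5. How duplicates were handled, how reads were filtered and which genome build was used were not given in the sources used here. The deposited counts are, per the file headers, methylated and unmethylated reads per cytosine. The authors also deposited a methylation level, which is a fraction, and a p-value with a corrected p-value. All listed cytosines are in CG context, with at least 5 reads, at least 1 methylated read and a corrected p-value below 0.05, so unmethylated strands are absent.

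Plus rows were paired with minus rows 1 position further on, where 38.3% and 34.0% of minus rows of the high- and low-altitude lists had a partner. Levels were computed from counts, without the authors' correction. Expected numbers are products of the shares of each library. Intervals are 95% Wilson intervals of reads or dyads, cover counting error only, and take reads as independent although duplicates may remain. Fisher's exact test with Benjamini-Hochberg adjustment ran over all eligible dyads. Calculations used Python 3.11.15, NumPy 2.4.6, SciPy 1.17.1 and pandas 2.3.3, and were tested on simulated data.

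Named dyads are the 4 members per higher strand with the largest smaller-of-both difference at 15 reads or more per strand, the 2 dyads nearest the threshold on each side (of ties, those with most reads), the 3 groups with most members (shorter first) and the members called between the libraries. The members and lists were chosen with earlier results of these data known. Positions are those of the files. Genes, repeats, sequence variants, sequence around members and CHG and CHH sites were not analysed here.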

Additional observations from a re-analysis of the deposited data

How the results depend on the processing

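Of 112 values recomputed under an alternative, 50 stayed within the 95% counting or sampling interval of the reported value (counts: within 1.5 times), 57 left it and 5 changed sign; the cause was not tested. The ratio of observed to expected members was 1.89 to 1.94 when each of the 18 autosomes was left out in turn, and 1.37 within level classes or 1.3 within level and depth classes. With at least 15 reads per strand there were 38 members at 9.28 times the expected number, and 16.7% and 17.4% of the unequal dyads of the high- and low-altitude library recurred. The plus strand was then higher in 39.5%, the higher strand had 72.4% and 72.8% and the lower 19.2% and 18.5%, neighbours leaned by 11.7 and 9.81 points with 95% intervals that include 0 (−7.18 to 30.6 and −2.38 to 22), and 10.5% of members lay near another. Fewer reads on the higher strand were found in 47.4% and 57.9%. The log2 depth against neighbours was 0.321 and 0.158 on the higher strand (a change of sign) and −0.604 and −0.692 on the lower. The libraries differed by −1.65 points, and 0 of the 38 members were called between them. The share of all dyads called at that depth was not computed. At thresholds of 20 and 50 points the dyads tested between the libraries were those of the main rule, of which 0.962% were called. At a threshold of 20 points there were 7967 members at 1.31 times the expected number, of which 37 were called between the libraries. Recurrence was 15.6% and 14.6%, the lower strand had 50.8% and 49.8%, neighbours leaned by 2.69 and 3.09 points, and the log2 depth was −0.0367 and −0.0374 on the higher strand and −0.0374 on the lower strand of the low-altitude library. At 50 points there were 115 members at 14.8 times the expected number, 1 of them called between the libraries, with recurrence of 6.45% and 5.75%, plus higher in 57.4%, a higher strand at 82.8% and 84.6%, a lower strand at 18.5% and 19.2%, and 0% near another. Neighbours, smaller members included, then leaned by 9.19 (−0.819 to 19.2) and 11.4 points (2.09 to 20.7), and without smaller members by 4.57 ± 4.17 and 7.77 ± 4.58 points (SE over 21 members). Fewer reads on the higher strand were found in 52.2% and 54.8%, and the log2 depth was −0.282 and −0.232 on the higher strand. On the lower strand it changed sign, to 0.158 and 0.0157, as did the difference between the libraries, to 0.39 points (95% interval −1.96 to 2.74). With at most 30 reads the lower strand had 40.6% at high altitude. At 50 points with under 30 reads on each strand, an alternative chosen after seeing the data, 88 members at 11.8 times the expected number were left. Neighbours leaned by 7.93 points within 50 bp in the high-altitude library, and by 0.689 and 0.833 points beyond 100 and up to 500 bp. On the plus or the minus strand alone, 0 members were called between the libraries, where 0.0087% and 0.0109% of all dyads were. No paired analysis was possible because each group has 1 pig. Levels below that of 1 methylated read per strand are outside these lists.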
